A study of Homo sapiens with 8 samples.

Results

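The 10 genes described here encode feedback brakes of the ERK MAP kinase pathway: the dual-specificity phosphatase genes DUSP1, DUSP4, DUSP5, DUSP6 and DUSP10, the Sprouty genes SPRY1, SPRY2 and SPRY4, and the Sprouty-related genes SPRED1 and SPRED2. They were chosen by name as part of these 3 families, and all 10 were found among the 30017 gene symbols of the 8 libraries. The rule uses no measured value, but the choice was made with earlier results of these data known. Other genes of these families, DUSP7 among them, are described apart. RNA was sequenced from A549-S3KO cells, made from the human lung adenocarcinoma line A549, in which the endogenous SMAD3 gene was disrupted by genome editing and to which a Smad3 cDNA was returned by lentivirus. The 4 groups, of 2 libraries each, were cells with Smad3(RA/KP) after 8 h with 1 ng/ml TGF-β, the same cells untreated, cells with wild-type Smad3 after 8 h with 1 ng/ml TGF-β, and those cells untreated. Smad3(RA/KP) carries the paired substitutions of arginine by lysine and alanine by proline in the MH1 domain, and the study asked which parts of Smad3 carry the separate responses to TGF-β. All groups share the SMAD3 disruption. Cells were detached with trypsin and seeded on collagen, and TGF-β was added at seeding. No culture time is given for the untreated libraries in the sources used here. Infected cells of both kinds were cloned by limiting dilution. Among clones carrying wild-type Smad3, one was picked for having the least Smad3. Which clones were sequenced is not stated in the sources used here, so a clone and its form of Smad3 cannot be told apart.

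Growth factor receptors signal through RAS, RAF and MEK to the kinase ERK, and ERK switches on the genes of its own inhibitors. DUSP proteins remove phosphate from activated MAP kinases: DUSP6 acts on ERK in the cytoplasm, DUSP5 on ERK in the nucleus, DUSP4 and DUSP1 on several MAP kinases in the nucleus, and DUSP10 mainly on JNK and p38. Sprouty and SPRED proteins act further up, between the receptor and RAF, and SPRED1 and SPRED2 recruit the RAS GTPase-activating protein neurofibromin, the product of NF1. The mRNA of these brakes is widely read as a gauge of ERK activity. The libraries measured mRNA only; ERK phosphorylation and the proteins were not measured in them.

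Expression is given as TPM, a transcript abundance that the authors scaled for gene length and library size. Differences are on the log2(TPM + 1) scale, TGF-β minus untreated or Smad3(RA/KP) minus wild-type Smad3, from limma fitted to the 13141 genes that averaged 1 TPM or more, with the replicate number as a block and Benjamini-Hochberg adjustment at 0.05. Of the 10 genes, 9 passed this minimum. SPRY1, with a mean of 0.634 TPM, did not and has no value in that fit. Replicates were described as independent experiments, with 2 libraries per group. The p-values measure the spread that remains after a replicate difference shared by all groups is removed, with that spread moderated across genes.

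The libraries held 1.15 to 1.81 Gb of mapped sequence and 12773 to 13281 genes at 1 TPM or more. SMAD7, a known direct target of Smad3, was higher with TGF-β in both lines, by 1.08 in Smad3(RA/KP) cells and by 1.03 in wild-type Smad3 cells on the log2(TPM + 1) scale. SMAD3 ranged over 137 to 187 TPM in the 8 libraries, a value that sums the cDNA and whatever the disrupted gene still transcribes. KRT8 and KRT18 were abundant, EPCAM was at 1.40 to 3.95 TPM, and KRT19 was listed at 0 in all 8 libraries although epithelial cells usually express it, so a 0 in these tables is reported only as listed. Of the markers of blood and endothelial cells, PTPRC, CD3E, LYZ, PECAM1, KDR and VWF were also listed at 0 in every library, and CDH5 reached at most 0.210 TPM. CD68, a lysosomal protein used as a macrophage marker, was at 51.0 to 104 TPM, higher in replicate 2 than in replicate 1 of every group and higher with TGF-β in all 4 pairs, and its part in the results was not tested. The 5 fibroblast markers summed to 1.14 to 5.61 TPM, with LUM at up to 5.19 TPM. One library stood apart: in untreated Smad3(RA/KP) cells, replicate 2 minus replicate 1 correlated with the GC content of the transcript at a Spearman coefficient of -0.585 across genes, against 0.101 to 0.224 in the other 3 groups. Responses in Smad3(RA/KP) cells rest on this library, and for the members and lists they are also given without it.

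DUSP4 was the member with the clearest response. DUSP4 lies on chromosome 8 at 29333062 to 29350750 (GRCh38, minus strand). It measured 55.6 and 53.4 TPM in TGF-β-treated Smad3(RA/KP) cells, against 102 and 81.2 TPM in untreated Smad3(RA/KP) cells. In wild-type Smad3 cells it measured 38.01 and 49.3 TPM after TGF-β, against 90.6 and 90.4 TPM untreated. All 4 treated libraries lay below all 4 untreated ones, with a gap between 55.6 and 81.2 TPM. The treated mean was 0.595 of the untreated mean in Smad3(RA/KP) cells and 0.483 of it in wild-type Smad3 cells. In RNA from whole cultures, fewer expressing cells and less RNA per cell cannot be told apart.

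In the limma fit DUSP4 fell by 1.05 in wild-type Smad3 cells (SE 0.19, adjusted p = 0.0157), and it was the 1 member of 9 called in that response. Across all genes tested, 1.74% were called lower and 2.94% higher there. In Smad3(RA/KP) cells its difference was -0.73 (SE 0.19), with an adjusted p of 0.0674 that missed the threshold, so 0 of 9 members were called, against 1.5% of all genes lower and 3.49% higher. These shares moved with single libraries: without 1 library, 106 to 1011 genes were called in wild-type Smad3 cells, against 615 with all 8, and 163 to 2622 in Smad3(RA/KP) cells, against 655. Before adjustment 2 of the 9 members, DUSP4 and DUSP1, had a p under 0.05 in each line. Of all 13141 genes tested, 2875 had such a p in Smad3(RA/KP) cells and 2172 in wild-type Smad3 cells. The call in wild-type Smad3 cells depended on each of their 4 libraries, since leaving out any 1 gave a difference of -0.80 to -1.29 with an adjusted p of 0.0548 to 0.236. Without the untreated Smad3(RA/KP) library that stood apart, the difference in Smad3(RA/KP) cells was -0.94, with an adjusted p of 0.0546. The call in wild-type Smad3 cells was also lost with no minimum on expression (adjusted p = 0.074), and the value in Smad3(RA/KP) cells passed on FPKM (adjusted p = 0.0439) or with a minimum of 5 TPM (adjusted p = 0.0469).

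The DUSP4 responses of the 2 lines were not shown to differ. Smad3(RA/KP) minus wild-type Smad3, the difference of the responses was 0.32 with a 95% interval of -0.29 to 0.93 (adjusted p = 0.883). The interval holds both no difference and a response in Smad3(RA/KP) cells that is smaller by most of its size in wild-type cells. In the treated cells alone, DUSP4 was higher with Smad3(RA/KP) by 0.32, with an interval of -0.11 to 0.75 that includes 0. Without the untreated Smad3(RA/KP) library that stood apart, the difference of the responses was 0.10.

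**Figure D1:**
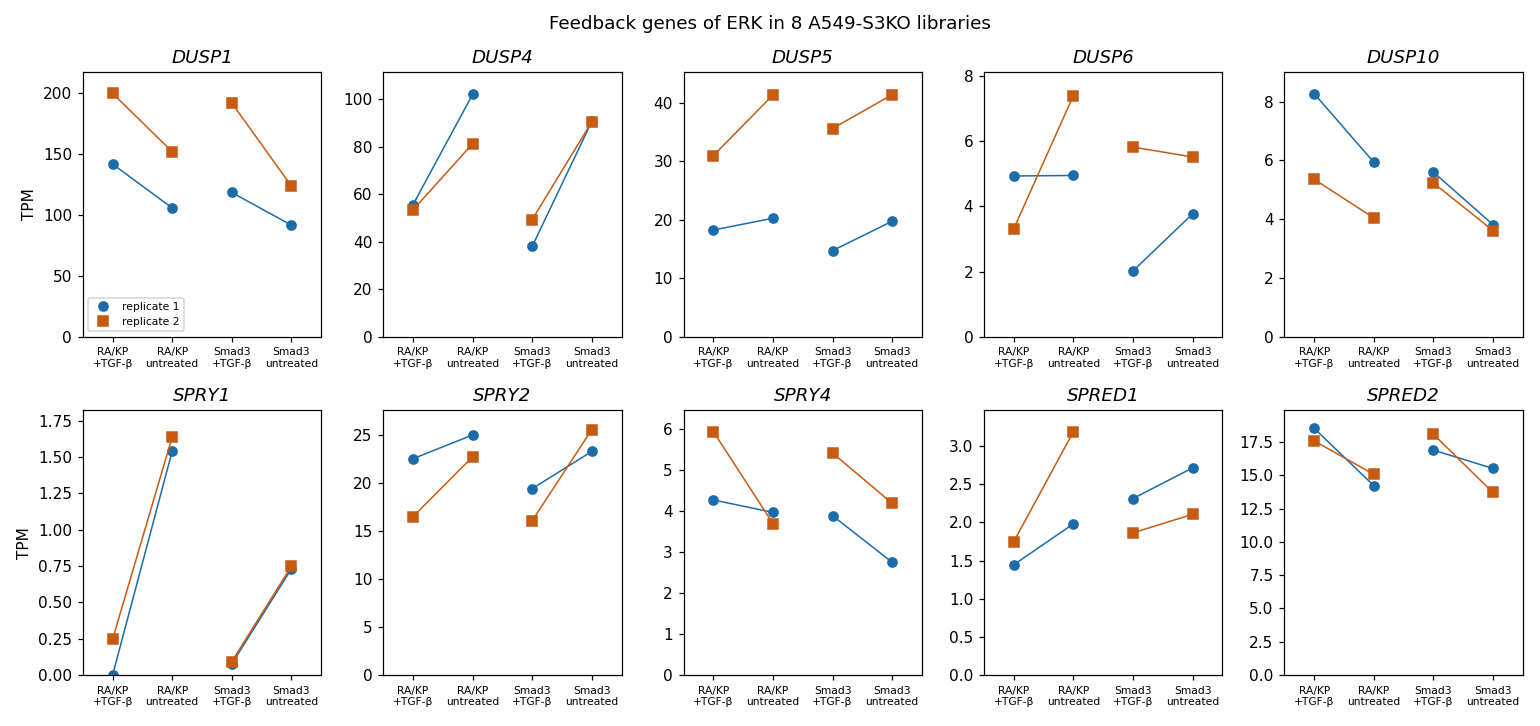
TPM of each of the 10 genes in the 8 libraries, with its own axis starting at 0; circles are replicate 1, squares are replicate 2, and lines join the treated and untreated library of the same number. DUSP4 and SPRY1 separate by treatment in both lines, with DUSP4 at 38.01 to 55.6 TPM in treated and 81.2 to 102 TPM in untreated libraries, while DUSP5 separates by replicate.

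The 3 genes whose pattern over the 8 libraries was most like that of DUSP4, among genes that averaged 5 TPM or more, were BAIAP2L2, FN3K and GSE1, with Pearson coefficients of 0.988, 0.985 and 0.982 over 8 libraries. BAIAP2L2 encodes a membrane-bending protein of the BAR family, and FN3K a kinase that removes sugar adducts from proteins. The points share the same treatment and libraries and depth, and the coefficients are a description.

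DUSP1, the phosphatase of the immediate early response, was the most abundant member and was higher where DUSP4 was lower. It lies on chromosome 5 at 172768090 to 172771200 (minus strand). DUSP1 measured 142 and 200 TPM in treated Smad3(RA/KP) cells, against 106 and 152 TPM untreated. In wild-type Smad3 cells it measured 119 and 192 TPM after TGF-β, against 91.7 and 124 TPM untreated. It was higher in the treated library of all 4 pairs, but replicate 2 was also higher than replicate 1 in every group, so treated and untreated libraries overlapped. The differences of 0.41 in Smad3(RA/KP) cells and 0.50 in wild-type Smad3 cells (SE 0.15 each) had adjusted p-values of 0.166 and 0.111 in limma and were not called. With the GC trend of each library removed, the difference in wild-type Smad3 cells was 0.56 and was called (adjusted p = 0.0208). That setting called more genes in that response, 1220 of 12424 against 615 of 13141, and no other setting called DUSP1 there.

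DUSP10 pointed upward in the same way at far lower levels. DUSP10, a phosphatase of JNK and p38, measured 8.27 and 5.36 TPM in treated Smad3(RA/KP) cells, against 5.94 and 4.04 TPM untreated. It measured 5.60 and 5.24 TPM in treated wild-type Smad3 cells, against 3.81 and 3.62 TPM untreated. Treated exceeded untreated in all 4 pairs, but over both lines the treated and untreated libraries overlapped. The differences were 0.38 and 0.44 (SE 0.24 each) in Smad3(RA/KP) and wild-type Smad3 cells, with adjusted p-values of 0.392 and 0.434.

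DUSP5 and DUSP6, the phosphatases most specific for ERK, gave no called response. DUSP5 measured 18.3 and 31.0 TPM in treated Smad3(RA/KP) cells, against 20.3 and 41.4 TPM untreated, and 14.7 and 35.6 TPM in treated wild-type Smad3 cells, against 19.8 and 41.4 TPM untreated. It was lower with TGF-β in all 4 pairs, by -0.27 and -0.31 in the fit, with intervals that included 0. DUSP6 measured 4.93 and 3.31 TPM in treated Smad3(RA/KP) cells, against 4.94 and 7.39 TPM untreated. In wild-type Smad3 cells DUSP6 measured 2.02 and 5.81 TPM after TGF-β, against 3.76 and 5.51 TPM untreated. DUSP6 was the 1 member of 10 without a common direction in the 4 pairs: replicate 2 of the wild-type cells was slightly higher with TGF-β, and replicate 1 of the Smad3(RA/KP) cells was almost level.

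The Sprouty genes, which act between receptors and RAF, split in direction. SPRY1 was barely expressed, and its treated libraries were the lowest: 0.00 and 0.25 TPM in treated Smad3(RA/KP) cells, against 1.54 and 1.64 TPM untreated. In wild-type Smad3 cells it measured 0.08 and 0.09 TPM after TGF-β, against 0.73 and 0.75 TPM untreated. The treated libraries of both lines lay at or below 0.246 TPM, below every untreated library. With no minimum on expression, limma gave SPRY1 differences of -1.21 with Smad3(RA/KP) and -0.68 with wild-type Smad3 (adjusted p = 0.0318 and 0.0905). Without the untreated Smad3(RA/KP) library that stood apart they were -1.25 and -0.68, and neither was called (adjusted p = 0.139 and 0.134). Its untreated level with Smad3(RA/KP) was higher than with wild-type Smad3 in both replicates, by 0.55 and 0.59 on the log2(TPM + 1) scale, at levels where the files give no count to set the precision.

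SPRY2, the most abundant Sprouty gene, measured 22.5 and 16.5 TPM in treated Smad3(RA/KP) cells, against 25.0 and 22.7 TPM untreated. SPRY2 measured 19.4 and 16.1 TPM in treated wild-type Smad3 cells, against 23.3 and 25.5 TPM untreated. All treated libraries lay below all untreated ones, but the gap was only from 22.5 to 22.7 TPM. The differences of -0.29 and -0.44 (SE 0.20 each) in Smad3(RA/KP) and wild-type Smad3 cells were not called, with adjusted p-values of 0.412 and 0.308. SPRY4 ran the other way, with 4.26 and 5.93 TPM in treated Smad3(RA/KP) cells against 3.96 and 3.69 TPM untreated, and 3.88 and 5.41 TPM in treated wild-type Smad3 cells against 2.75 and 4.18 TPM untreated. Its differences, 0.32 and 0.34, were not called.

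SPRED1 and SPRED2, the partners of neurofibromin, also differed from each other. SPRED2 measured 18.5 and 17.6 TPM in treated Smad3(RA/KP) cells, against 14.2 and 15.1 TPM untreated, and 16.9 and 18.1 TPM in treated wild-type Smad3 cells, against 15.5 and 13.7 TPM untreated. All 4 treated SPRED2 libraries exceeded all 4 untreated ones, by differences of 0.28 and 0.25 that were not called. SPRED1 measured 1.45 and 1.75 TPM in treated Smad3(RA/KP) cells, against 1.98 and 3.19 TPM untreated. In wild-type Smad3 cells SPRED1 measured 2.31 and 1.86 TPM after TGF-β, against 2.71 and 2.11 TPM untreated. The highest SPRED1 value came from the library that stood apart by GC content. SPRED1 has the most AT-rich transcript of the members (36.3% GC, at percentile 3.7 of the genes tested). Its difference in Smad3(RA/KP) cells was -0.45 with that library and -0.15 without it, and neither was called. With the GC trend of each library removed, the difference was -0.0399 (SE 0.21), near 0. The part of GC content in the SPRED1 values was not tested.

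**Figure D2:**
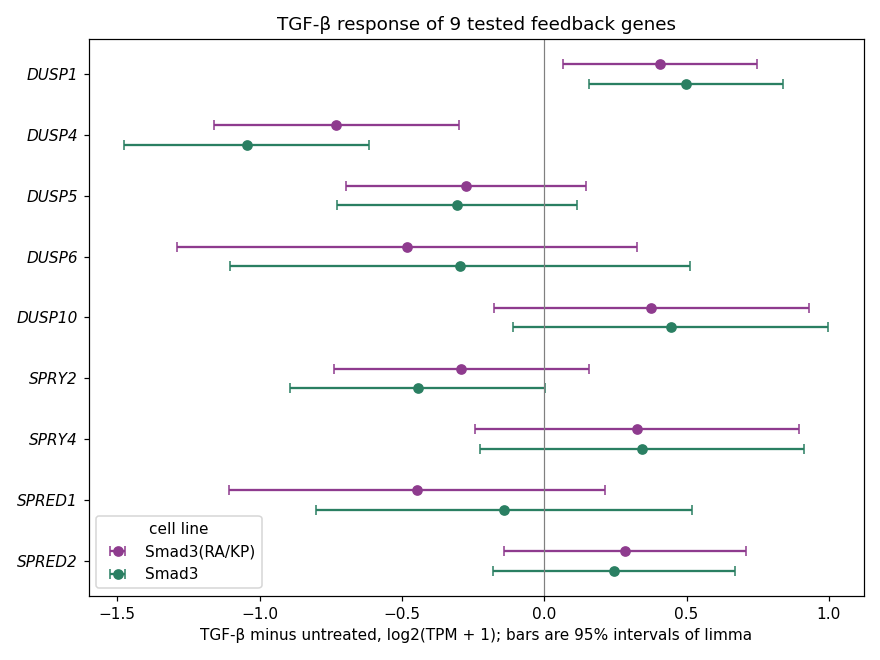
Difference of log2(TPM + 1) between TGF-β-treated and untreated cells for the 9 tested members, with Smad3(RA/KP) above wild-type Smad3 for each gene and bars for the 95% interval of limma. DUSP4 lies at -0.73 and -1.05 and DUSP1 at 0.41 and 0.50, with the intervals of both genes clear of 0 in both lines. The intervals are not adjusted for the number of genes, and only DUSP4 in wild-type Smad3 cells was called.

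Across the members, direction was shared by the lines more often than it reached the threshold. Of the 10 genes, 5 were lower with TGF-β in all 4 pairs (DUSP4, DUSP5, SPRY1, SPRY2 and SPRED1) and 4 were higher in all 4 pairs (DUSP1, DUSP10, SPRY4 and SPRED2). Among all genes tested, 20.1% were lower and 13.1% were higher in all 4 pairs. Treated and untreated libraries did not overlap for DUSP4, SPRY1 and SPRY2, all lower, and for SPRED2, higher. Among all genes tested 8.69% were lower and 6.96% higher in this way. SPRY1, below the minimum of 1 TPM, is among the members counted but not among the genes tested. Without the untreated Smad3(RA/KP) library that stood apart, the differences in Smad3(RA/KP) cells were 0.40 for DUSP1, 0.26 for DUSP10, -0.27 for DUSP5, -0.43 for DUSP6, -0.27 for SPRY2, 0.0740 for SPRY4 and 0.35 for SPRED2, and 0 of 9 members were called. The median difference of the 9 tested members was -0.27 in Smad3(RA/KP) cells, against -0.10 for all genes, and -0.14 in wild-type Smad3 cells, against -0.06 for all genes. Neither median kept its sign in every fit without 1 library. In Smad3(RA/KP) cells it became positive only without treated replicate 2, at 0.10. It was -0.15 without the library that stood apart, -0.27 without untreated replicate 1 and -0.37 without treated replicate 1. With the GC trend removed it was -0.04. In wild-type Smad3 cells it was 0.21 without treated replicate 1, 0.06 without untreated replicate 1, 0.03 without treated replicate 2 and -0.24 without untreated replicate 2.

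The mean of the responses of both lines, a comparison added after the values had been seen, called 2 of 9 members. DUSP4 was lower by -0.89 (SE 0.13, adjusted p = 0.00308) and DUSP1 was higher by 0.45 (SE 0.11, adjusted p = 0.0266). In this comparison 5.08% of all genes were called lower and 6.22% higher. DUSP4 kept its call there whichever library was left out, with adjusted p-values of 0.00364 to 0.0269. DUSP1 lost it when any 1 of 6 of the 8 libraries was left out, at adjusted p-values of 0.0788 to 0.173, and kept it without either untreated Smad3(RA/KP) library. With no minimum on expression the mean response of SPRY1 was -0.95 (adjusted p = 0.0106), and -0.96 without the library that stood apart (adjusted p = 0.0568).

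No member was called between the lines. Of all 13141 genes tested, 564 had an unadjusted p under 0.05 for the difference of the responses. Between untreated lines 329 did, and between treated lines 973. For the difference of the responses, 0 of 9 members were called, none had an unadjusted p under 0.05, and values ranged from -0.31 for SPRED1 to 0.32 for DUSP4; 0.0228% of all genes were called. For untreated Smad3(RA/KP) against untreated wild-type Smad3 cells 0 of 9 were called in limma, with none under an unadjusted 0.05, against 0.0152% of all genes, and values ranged from -0.03 for SPRY2 to 0.34 for DUSP6. For the treated cells the count was again 0 of 9, with none under an unadjusted 0.05, against 0.00761% of all genes, and values ranged from -0.25 for SPRED1 to 0.32 for DUSP4. The 95% intervals of the difference of the responses reached a width of -1.33 to 0.96 for DUSP6 and were narrowest for DUSP1, at -0.57 to 0.39. A p above the threshold therefore leaves room for sizeable differences, in the abundant members as well as the low ones. For DUSP4 the interval was -0.29 to 0.93. SPRY1, below the minimum and so not in these counts and ranges, had values outside them. With no minimum on expression it differed by 0.57 (SE 0.13) between untreated lines and by -0.53 (SE 0.18) for the difference of the responses, and neither was called (adjusted p = 1 and 0.844).

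The replicates differed more than the treatments for DUSP5. In the same fit, with the comparison added after the values had been seen, replicate 2 exceeded replicate 1 by 0.99 for DUSP5 (95% interval 0.69 to 1.29, adjusted p = 0.016), and 1.07% of all genes were called in either direction. DUSP5 was the 1 called member of 9, and its replicate 2 libraries lay at 31.0 to 41.4 TPM, above the 14.7 to 20.3 TPM of replicate 1 in all 4 groups. For DUSP1 the replicate difference was 0.53, with an adjusted p of 0.0543, and for DUSP4 it was -0.0042 with an interval of -0.31 to 0.30. FOSL1, an AP-1 subunit whose mRNA is a known output of ERK, and HMGA2, a chromatin protein on the same list, were also higher in replicate 2, by 1.26 and 1.38 (adjusted p = 0.0102 each). They were 2 of 16 tested ERK outputs called, and the other 14 lay between -0.37 for BHLHE40 and 0.62 for PHLDA1. Outside that list and the members, SOCS3, an inhibitor of cytokine signalling, was higher in replicate 2 by 0.71 and KRT18 was lower, at -0.82 (adjusted p = 0.0464 and 0.0175). The sources used here do not say what differed between the replicates.

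**Figure D3:**
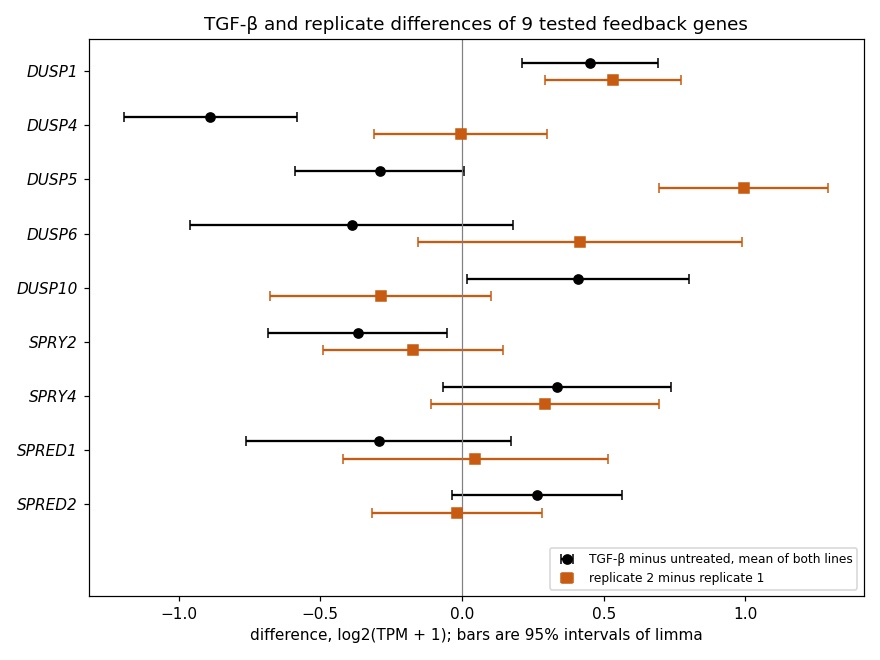
Mean TGF-β response of both lines (circles) and replicate 2 minus replicate 1 (squares) for the 9 tested members, as differences of log2(TPM + 1) with 95% intervals of limma. DUSP4 separates by treatment, at -0.89 against -0.0042 between replicates, and DUSP5 by replicate, at 0.99 against -0.29 with TGF-β.

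The order of the 10 levels was the same in the untreated cells of both lines, on the length-scaled TPM. DUSP1 had the highest mean, with 129 ± 33 TPM in Smad3(RA/KP) cells and 108 ± 23 TPM in wild-type Smad3 cells (SD, n = 2 each). DUSP4 followed with 91.6 ± 14.7 and 90.5 ± 0.1 TPM, below DUSP1 in range in both lines, although in wild-type Smad3 cells the highest DUSP4 value, 90.6 TPM, was close to the lowest DUSP1 value, 91.7 TPM. DUSP5 and SPRY2, at 30.8 and 23.9 TPM in Smad3(RA/KP) cells and 30.6 and 24.4 TPM in wild-type Smad3 cells, overlapped in range, and SPRED2 lay below them at 14.7 and 14.6 TPM. DUSP6, DUSP10 and SPRY4 could not be ordered beyond their spread, at means of 3.46 to 6.17 TPM, and SPRED1 and SPRY1 were the lowest. With TGF-β, DUSP4 stayed second to DUSP1 in all 4 treated libraries.

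Promoter sequence was read for the members from RefSeq (GRCh38.p14), as windows of 300 bases that run from 250 before to 50 after each annotated start, and 8 of the 10 genes matched, all but DUSP4 and DUSP5. The window of DUSP1, the most abundant member, is shown because the gene was higher with TGF-β in all 4 pairs and because it holds a full cAMP response element, TGACGTCA, here in capitals. It runs 5′ to 3′ on the minus strand of chromosome 5, at 172771146 to 172771445.
DUSP1: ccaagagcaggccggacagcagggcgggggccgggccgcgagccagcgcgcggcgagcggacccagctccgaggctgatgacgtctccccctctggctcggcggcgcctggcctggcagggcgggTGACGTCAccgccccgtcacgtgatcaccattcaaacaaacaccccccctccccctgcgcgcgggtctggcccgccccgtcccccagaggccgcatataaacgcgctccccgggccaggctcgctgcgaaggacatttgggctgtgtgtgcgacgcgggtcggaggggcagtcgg
The first of the SPRY1 windows, of the member with the lowest level, runs on the plus strand of chromosome 4 at 123396545 to 123396844 and holds none of the motifs searched, so it has no capitals.
SPRY1: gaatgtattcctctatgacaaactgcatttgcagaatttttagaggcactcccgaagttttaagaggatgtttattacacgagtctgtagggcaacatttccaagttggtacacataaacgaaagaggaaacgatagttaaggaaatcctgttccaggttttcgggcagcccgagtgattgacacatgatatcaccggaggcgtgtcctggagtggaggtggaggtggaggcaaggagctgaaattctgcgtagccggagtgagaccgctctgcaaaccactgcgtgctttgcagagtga
This element was picked after the windows had been read, and it occurs in 1.85% of 35114 such windows. It is known as a binding letter sequence of CREB and related factors. Of the 3 motifs chosen for TGF-β and ERK signalling, the Smad box CAGACA is in 16.88% of all windows, the AP-1 element TGACTCA in 4.95% and the ETS element CCGGAAGT in 4.14%, each counted on both strands. Among the windows of these 8 genes they matched only once, with an AP-1 element in the second of the SPRED2 windows. These matches describe letters in short windows and carry no information on binding.

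Other MAP kinase phosphatases did not follow DUSP4. Of the 5 listed, 3 were tested, and DUSP7, which acts on ERK in the cytoplasm, was higher with TGF-β in both lines. DUSP7 measured 13.1 and 19.5 TPM in treated Smad3(RA/KP) cells, against 5.17 and 7.51 TPM untreated, and 11.6 and 15.04 TPM in treated wild-type Smad3 cells, against 5.07 and 8.31 TPM untreated. All treated libraries exceeded all untreated ones, by 1.23 (adjusted p = 0.0106) and 0.92 (adjusted p = 0.0371). Without the library that stood apart, DUSP7 was higher in Smad3(RA/KP) cells by 1.21 (adjusted p = 0.0391). DUSP2 was listed at 0 in all 8 libraries. SPRED3, the 1 tested gene of the other Sprouty and SPRED genes, was not called, with 0.18 and -0.15.

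Of 9 tested RAS GTPase-activating proteins and SPRED partners, 0 were called in either line. The smallest p-values belonged to RASA3 with Smad3(RA/KP) (0.52, adjusted p = 0.181) and to RASA1 in wild-type Smad3 cells (0.58, adjusted p = 0.367). Of 14 other brakes of receptor tyrosine kinases, 1 was called in each line, and it was ERRFI1, the inhibitor of the EGF receptor. ERRFI1 measured 16.6 and 11.6 TPM in treated Smad3(RA/KP) cells, against 38.5 and 35.5 TPM untreated, and 16.9 and 21.7 TPM in treated wild-type Smad3 cells, against 40.7 and 39.8 TPM untreated. It was lower by -1.35 (adjusted p = 0.00936) and -1.03 (adjusted p = 0.0308). Without the library that stood apart, the ERRFI1 difference in Smad3(RA/KP) cells was -1.38 and no longer called (adjusted p = 0.0510).

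In the core of the pathway, 0 of 23 tested genes of the RAS-ERK cascade were called in either line, with 1 under an unadjusted p of 0.05 in each. This was MAP2K1, the gene of MEK1, at 0.36 with Smad3(RA/KP) and 0.39 with wild-type Smad3 (adjusted p = 0.215 and 0.238). Of all 13141 genes tested, 2875 with Smad3(RA/KP) and 2172 with wild-type Smad3 had an unadjusted p under 0.05. Of 13 tested genes of the JNK and p38 cascades, MAP2K6, a kinase that activates p38, was lower in both lines. MAP2K6 differed by -1.34 with Smad3(RA/KP) and by -1.02 with wild-type Smad3 (adjusted p = 0.0136 and 0.0422). Without the library that stood apart, the value in Smad3(RA/KP) cells was -1.24 and not called (adjusted p = 0.0680). MAPK12, a p38 isoform, was at -0.47 with Smad3(RA/KP), not called, and at -0.89 with wild-type Smad3, called lower (adjusted p = 0.219 and 0.0401), and the difference of these responses was not called (0.43, adjusted p = 0.881).

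Transcripts listed as outputs of ERK, on a list written with earlier results of these data known, were higher where they were called. Of 16 tested, 6 were called higher with Smad3(RA/KP) and 5 with wild-type Smad3, and none lower. Among all genes tested, 3.49% and 2.94% were called higher, and 1.5% and 1.74% lower. The list medians were 0.42 and 0.30, against -0.10 and -0.06 for all genes. SPHK1, a kinase that makes a signalling lipid from sphingosine, rose by 3.40 with Smad3(RA/KP) and by 3.34 with wild-type Smad3, at adjusted p-values of 0.000298 and 0.000305. PLAUR, the urokinase receptor, was higher by 1.17 and 1.40, BHLHE40 by 1.69 and 1.72, and IER3 by 1.36 and 1.05, each called in both lines. HMGA2 was called in both, and CCND1, the gene of cyclin D1, in Smad3(RA/KP) cells only at 0.77, with 0.47 in wild-type cells and a difference that was not called (0.30, adjusted p = 0.881). The ETS factors ETV4 and ETV5, also listed as ERK outputs, were not called, at 0.07 and -0.29 in Smad3(RA/KP) cells and -0.17 and -0.10 in wild-type Smad3 cells. FOSL1 was at 0.11 in Smad3(RA/KP) cells and at -0.09 for the mean response of both lines, and neither was called. In wild-type Smad3 cells its mean was lower after TGF-β, at 99.6 TPM (57.5 to 142) against 126 TPM untreated (65.2 to 186). Without the library that stood apart, 5 of the 16 were called in Smad3(RA/KP) cells, with SPHK1 at 2.89, and CCND1 was not (0.80, adjusted p = 0.0662). Several of these genes are also known as direct TGF-β targets.

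Of 14 tested immediate early genes, on a list written in the same way, 6 rose and 0 fell with Smad3(RA/KP), and 6 rose and 1 fell with wild-type Smad3. The shares of all genes called are those given for the ERK outputs. JUNB, a subunit of AP-1, was higher by 3.03 and 2.69, GADD45B, a stress sensor, by 2.32 and 2.27, and JUN by 1.58 and 1.47, each called in both lines. IER5 was the 1 lower gene, at -1.06 in wild-type Smad3 cells (adjusted p = 0.0186), with -0.65 in Smad3(RA/KP) cells. Without the library that stood apart, 4 of the 14 were called in Smad3(RA/KP) cells, all higher, with JUNB at 2.45. None of the genes on these 8 lists was called for the difference of the responses.

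**Figure D4:**
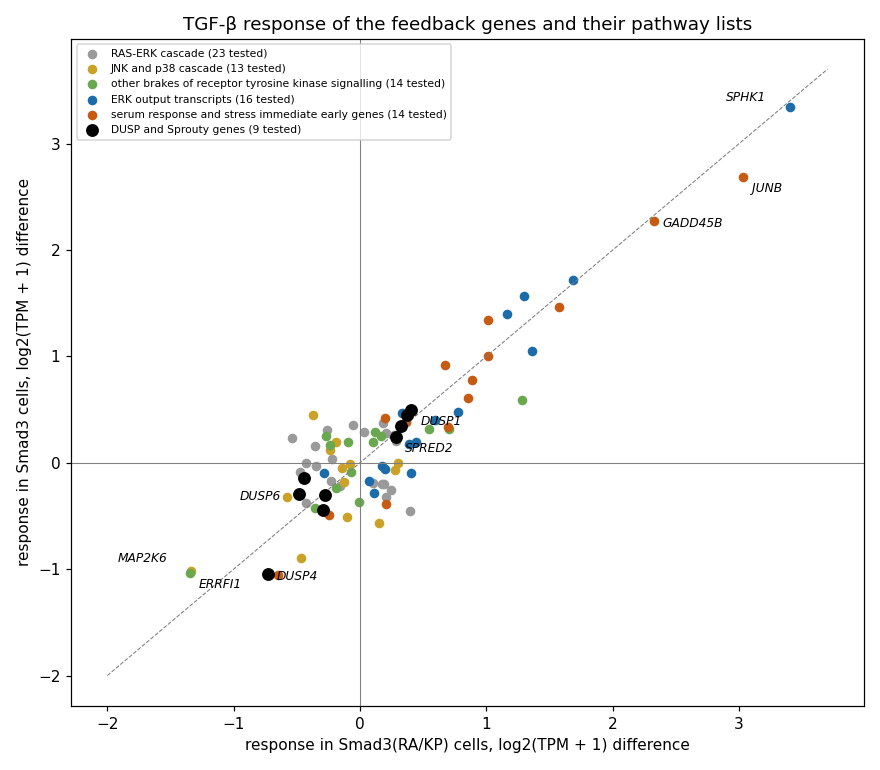
TGF-β response in Smad3(RA/KP) cells (horizontal) against that in wild-type Smad3 cells (vertical), as differences of log2(TPM + 1), for the members and 5 pathway lists; each point is a gene and the dashed line marks equal responses. The members lie near the centre apart from DUSP4 at -0.73 and -1.05, beside ERRFI1 and MAP2K6, while SPHK1, JUNB and GADD45B lie above 2 in both lines.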

How the data were processed

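Polyadenylated RNA of 8 libraries was sequenced after library preparation with an Ion Total RNA-Seq kit. The authors deposited 1 table per library, made by aligning reads to GRCh38 and quantifying gene records; the submitters' processing notes name HISAT2 2.1.0 and StringTie 2.0.4, and no annotation is named in the sources used here. The tables hold the authors' TPM, FPKM and coverage per record. TPM was analysed; the deposited FPKM served as an alternative, and mapped bases were taken from the most frequent ratio of the deposited coverage to FPKM. The files give no counts, so no counting intervals are given.

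Records of 1 symbol were summed, and symbols averaging 1 TPM or more were fitted in limma 3.58.1 (R 4.3.3) on log2(TPM + 1), with 4 groups, a block for the replicate number and a mean-variance trend. The fit had 3 residual and 5.9 prior degrees of freedom. The study formed its ratios within each of 2 experiments. That same-numbered libraries of both lines share an experiment is an assumption; their deviations from the group means correlated at 0.0484 to 0.332. GC content was available for 94.54% of tested genes.

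The members and lists were chosen with earlier results of these data known. Named genes were all members, up to 4 called genes per list by adjusted p (or the 2 of lowest p in lists with none), SMAD3 and SMAD7 as checks, and the 3 genes most like a called member. IER5, CCND1, MAPK12, DUSP2, FOSL1, PHLDA1, SOCS3, CD68, ETV4 and ETV5 were named after their values were seen where they fell outside this rule. Some items that the lists or this rule would name are not reported here. The fit was tested on simulated data: with each gene's own residual spread as noise it recovered fewer changed genes than the limit set, and the noise was then drawn from the moderated variance, with which it passed. Alternatives were other pseudocounts, filters, FPKM, scalings, block terms, no trend, a GC correction and leaving out each library. Figures were drawn with matplotlib 3.10.9.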

Additional observations from a re-analysis of the deposited data

How the results depend on the processing

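Of 990 differences of single members recomputed under 11 processing settings and 8 fits without 1 library, 919 kept their direction and side of the threshold, 14 lost a call, 5 gained one and 52 changed sign, all 52 from uncalled values. For the response in wild-type Smad3 cells, the members called numbered 0 with no filter on low values, 2 with the GC trend removed under the replicate block and 0 to 1 without 1 library. For Smad3(RA/KP) cells the count was 1 with no filter (SPRY1), 1 with a minimum of 5 TPM and 1 on FPKM (DUSP4 in both). Among all genes these settings called 242 of 18383, 666 of 9460 and 767 of 12065 in Smad3(RA/KP) cells. With no filter, 287 of 18383 were called in wild-type Smad3 cells. For the mean response, added after seeing the data, it was 1 without the replicate block, 1 with a block within each line, 1 without the trend, 4 with the GC trend removed (DUSP1, DUSP4, DUSP10 and SPRED2) and 1 to 2 without 1 library. Among all 13141 genes, the mean response called 870 without the replicate block, 1029 with a block within each line and 1324 without the trend. Removing the GC trend also raised the calls among all genes. For the mean response 2223 of 12424 genes were called, against 1484 of 13141 in the main fit. In wild-type Smad3 cells 1220 of 12424 were called, against 615 of 13141. The replicate block was the main design. Without the block the response in wild-type Smad3 cells called 277 genes, against 615, and that in Smad3(RA/KP) cells 269, against 655. DUSP4 kept its call in wild-type cells without the block (adjusted p = 0.0324). The Smad3(RA/KP) response split into 458 genes up and 197 down on TPM, and 458 up and 309 down on FPKM. The comparisons between lines were not run with a block within each line, since they would then rest on replicate 1. Where a fit left 1 library in a group, limma assumed that it varied like the others. The cause of these changes was not tested.

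Under processing settings the values that changed sign lay between -0.13 and 0.0805, and SPRED1 moved most, from -0.31 for the difference of the responses. For the difference of the responses SPRY4 became 4e-04 with a pseudocount of 5, 0.009 with median-ratio scaling and 0.0301 with quantile normalization, and with the GC trend removed DUSP5 became -0.13, DUSP10 0.0805 and SPRED1 0.0559. Between untreated lines SPRED2 became -0.0021 on FPKM; median-ratio scaling gave -0.0223 for DUSP4, -0.0139 for DUSP5 and -0.0237 for SPRED2; quantile normalization gave -0.0091 for DUSP4, -0.0023 for DUSP5, -0.0114 for SPRED1 and -0.0482 for SPRED2; and removing the GC trend gave -0.10 for SPRED1. Between treated lines DUSP5 became -0.0692 with the GC trend removed.

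Without 1 library, the wild-type response ranged over -0.35 to 0.0625 for SPRED1 and -0.80 to 0.21 for DUSP6, and the Smad3(RA/KP) response over -1.06 to 0.10 for DUSP6. The difference of the responses ranged over -0.24 to 0.10 for DUSP10, -0.27 to 0.23 for SPRY4, -0.0613 to 0.14 for SPRED2, -0.14 to 0.21 for DUSP5, -0.0486 to 0.35 for SPRY2, -0.20 to 0.0136 for DUSP1 and -0.77 to 0.40 for DUSP6. Between untreated lines the ranges were -0.0076 to 0.0413 for DUSP5, -0.21 to 0.22 for DUSP4, -0.12 to 0.38 for SPRY4, -0.23 to 0.17 for SPRY2, -0.24 to 0.35 for SPRED1 and -0.10 to 0.11 for SPRED2. Between treated lines they were -0.13 to 0.22 for DUSP5, -0.43 to 0.74 for DUSP6, -0.0291 to 0.12 for SPRED2 and -0.0505 to 0.29 for SPRY2.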
